A study of Mus musculus with 6 samples.

Results

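The constitutive proteasome genes of mouse ADSCs were compared between cells with Ifit1 knocked down and cells with a scrambled control. They were taken as the protein-coding rows whose symbol starts with Psm, a letter from a to g and a digit, without the interferon-inducible Psmb8, Psmb9, Psmb10, Psme1 and Psme2. The rule gave 45 of the 19877 genes listed, and 42 of the 45 are subunits, assembly chaperones or regulators of the proteasome by name. The remaining 3 are Psmc3ip and Psme3ip1, named for binding a subunit, and Psme2b, a copy of Psme2. The 45 genes lie on 16 chromosomes, and Psma8, the alpha subunit of germ cells, was not analysed here. The knockdown group held 3 libraries of ADSCs labelled as IFIT1 knockdown, and it was compared with 3 libraries of ADSCs labelled Scrambled. All 6 libraries carry the genotype label WT, and each of 3 labelled batches holds 1 library of each kind. The labels write only ADSC, which usually stands for adipose-derived stem cells, the stromal progenitors of fat. The sources used here do not give the knockdown reagent, how it was delivered, which stretch of Ifit1 it targets, the age of the animals or whether replicates were separate cultures. The p-values therefore describe the spread among these libraries, and that spread may be technical.

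The proteasome is the protease that degrades proteins marked with ubiquitin. Its core particle is a barrel of alpha and beta rings in which Psmb5, Psmb6 and Psmb7 carry the active sites, and its regulatory particle has a base with a ring of ATPases that unfolds substrates and a lid that removes ubiquitin. Interferon induces other active-site subunits that replace these. When proteasomes are impaired, the transcription factor NFE2L1 raises most subunit genes together in mammalian cells.

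The promoters of these genes were searched for TGACNNNGC, the core of the antioxidant response element to which NFE2L1 and NFE2L2 bind, since this element is the known route to joint regulation of the subunits. The window ran from 250 bases before to 50 bases after the start in RefSeq on GRCm38.p6, on both strands, and 38 of the 45 members had an entry. The element was found in 6 of them (15.8%), which were Psmb5, Psmb6, Psmc6, Psmd12, Psmd9 and Psme4, and in 14.0% of the 27025 genes in the table. CCAAT, the motif of NF-Y, was found in 15 members (39.5%) and in 41.1% of all genes, and no member's window held both motifs. The shares among the members were close to those among all genes. The stretches that hold the first element upstream of the start are printed 5′ to 3′ on the gene's strand, with the element in capitals, which reads TGACNNNGC for Psmb5, Psmb6 and Psmd9 and as its reverse complement for Psmc6 and Psmd12.
Psmb5: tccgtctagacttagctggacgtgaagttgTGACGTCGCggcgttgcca
Psmb6: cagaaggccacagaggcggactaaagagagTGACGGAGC
Psmd9: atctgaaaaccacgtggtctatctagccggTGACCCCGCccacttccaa
Psmc6: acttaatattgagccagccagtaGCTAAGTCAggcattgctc
Psmd12: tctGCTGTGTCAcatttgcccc
They lie at chr14:54618024-54618072 for Psmb5 (minus strand), chr11:70525318-70525356 for Psmb6 (plus strand), chr5:123228129-123228177 for Psmd9 (plus strand), chr14:45329574-45329615 for Psmc6 (plus strand) and chr11:107479278-107479299 for Psmd12 (plus strand). The element of Psme4 spans its start and is not printed. Of the 5 genes printed, Psmb5, Psmc6 and Psmd12 passed the test described next and Psmb6 and Psmd9 did not. A match is a run of letters and does not show binding.

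The values are FPKM, fragments per kilobase of gene and per 1 M fragments, which the authors deposited without counts. Between 32.2 and 40.6 M whole fragments per library could be recovered from the steps in the values, and a tested member had between 285 and 23381 fragments in a library. Knockdown and scrambled libraries were compared on log2(FPKM + 0.5) with limma, with Benjamini-Hochberg adjustment over the 10311 genes that reached an FPKM of 1 in at least 3 libraries and a threshold of 0.05. Errors after a log2 fold change are standard errors, and errors after an FPKM are SDs over 3 libraries. Ifit1, the target, stood at 1.76, 1.48 and 1.51 FPKM in knockdown libraries 1, 2 and 3, against 4.90, 3.75 and 4.97 FPKM in scrambled libraries 1, 2 and 3 (log2 fold change −1.27 ± 0.11, limma adjusted p = 5.71e-05). The stromal markers chosen for a check of the label summed to 1346 to 1655 FPKM in knockdown and 2363 to 2699 FPKM in scrambled libraries. All 10 were listed and 9 passed the filter. Col1a1 was the highest of them, at 948 FPKM on average, and makes up a large part of the sum. Markers of endothelium reached at most 0.0606 FPKM in sum, those of Schwann cells 0.258, those of leukocytes 2.50 with Cd68 the highest, and those of epithelium 0.595 to 1.03 in knockdown and 1.80 to 2.07 in scrambled libraries. Of the adipocyte markers 1 of 4 was in the table, Adipoq, at 0.00362 FPKM on average. Whether shifts in these markers have a part in the results was not tested.

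Most proteasome subunit genes were slightly higher in knockdown libraries. Of the 45 members 44 were abundant enough to test, and 26 rose (59.1%) and 2 fell, while 19.8% of all tested genes rose and 31.1% fell. The median log2 fold change was 0.099 for the tested members and −0.048 for all tested genes. Knockdown and scrambled values did not overlap for 29 members that were higher and 2 that were lower, against 23.8% and 37.3% of all tested genes. The members together took 7254, 7218 and 7119 of each 1 M fragments in knockdown libraries 1, 2 and 3, against 6676, 6697 and 6477 in scrambled libraries 1, 2 and 3. In bulk RNA, a change in the number of cells of a type and a change in RNA per cell cannot be told apart.

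**Figure D1:**
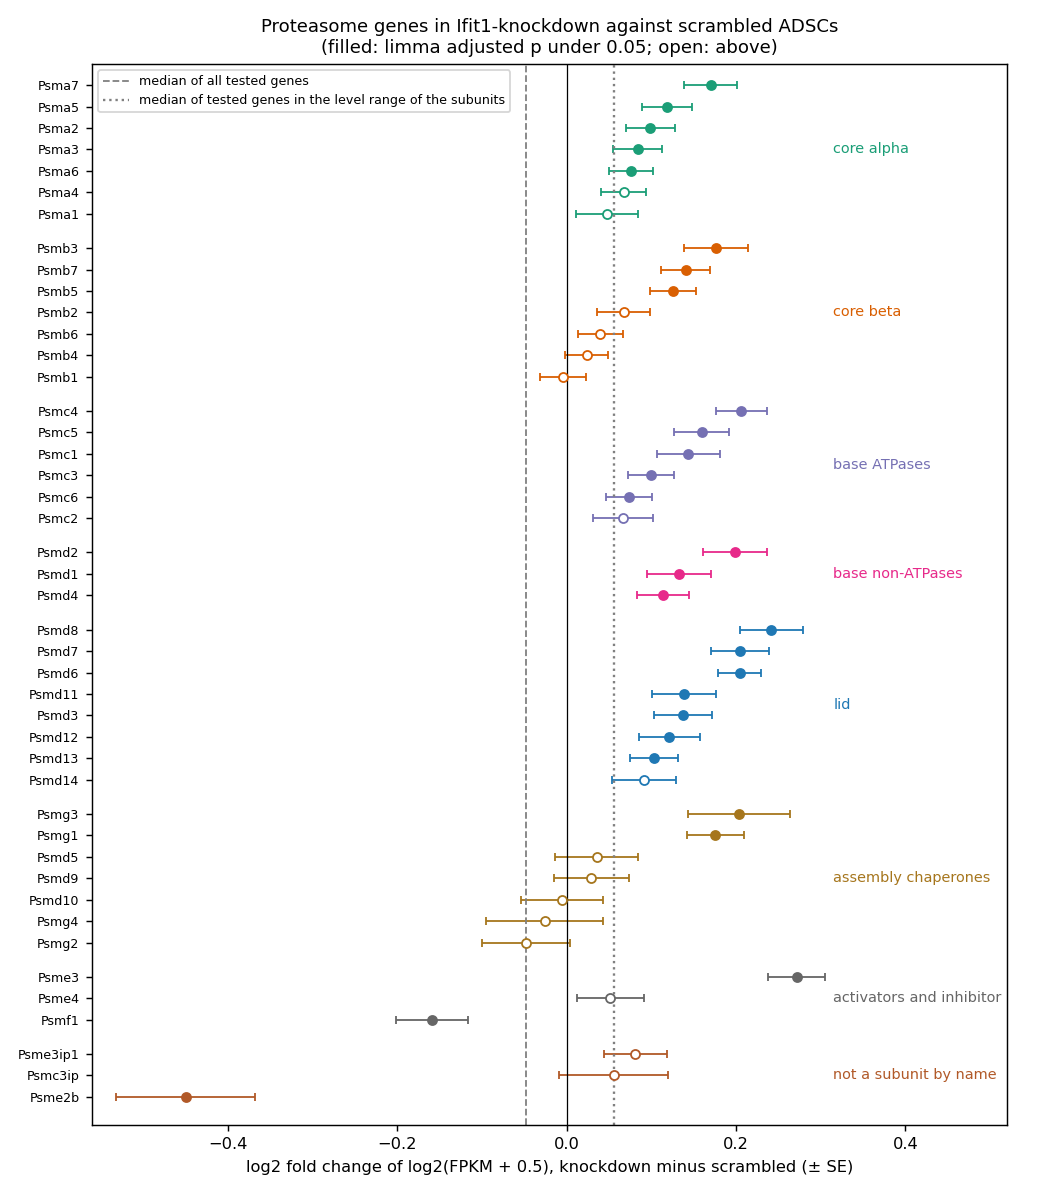
Log2 fold change of log2(FPKM + 0.5) on the x axis, knockdown minus scrambled, for the 44 tested members (rows, grouped by role). Points are limma estimates with standard errors, filled where the adjusted p was under 0.05, and the vertical lines mark 0, the median of all tested genes (−0.048) and the median of tested genes in the level range of the subunits (0.056). Most core, base and lid genes lie to the right of 0, and Psme2b and Psmf1 lie furthest to the left.

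Genes as abundant as the subunits were more often higher than all tested genes were. The 31 tested core and regulatory particle subunits had mean levels from 46.0 to 269 FPKM. Among the 1346 tested genes in that range the median log2 fold change was 0.056, and 41.9% rose and 20.9% fell. Of the 31 subunits 23 rose (74.2%), with a median of 0.12. No subunit passed in the other direction with limma, at an unadjusted p under 0.05 or with limma-voom. Scaling between libraries moved these counts more than any single library did. The members that rose numbered 14 after rescaling to TPM (14.9% of all tested genes rose), 35 under median centring (29.1%) and 35 with limma-voom (29.9%). Quantile normalization gives all libraries 1 distribution and cyclic loess removes a trend with level between them, and under these 11 members rose with quantile normalization (25.0%, against 24.1% of all tested genes) and 10 with cyclic loess (22.7%, against 22.0%). In both, the share of members was close to that of all genes. The share of rises among all called genes was 38.9% as reported, 27.6% after rescaling to TPM, 56.7% under median centring, 52.4% under quantile normalization, 47.8% with cyclic loess and 56.3% with limma-voom.

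The rise of 8 of the 44 tested members passed under every alternative run. The share of all tested genes that did so is not given here, so this count is a description only. These were the alpha subunit Psma7, the ATPases Psmc4 and Psmc5, the lid subunits Psmd6, Psmd7 and Psmd8, the assembly chaperone Psmg1 and the activator Psme3. Their log2 fold changes under the alternatives ran from 0.086 for Psmc5 to 0.35 for Psme3. Psmb1 was called lower with quantile normalization (adjusted p = 0.0427) and with cyclic loess (0.0175) and under no other alternative, its adjusted p reaching 0.965 among them.

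**Figure D2:**
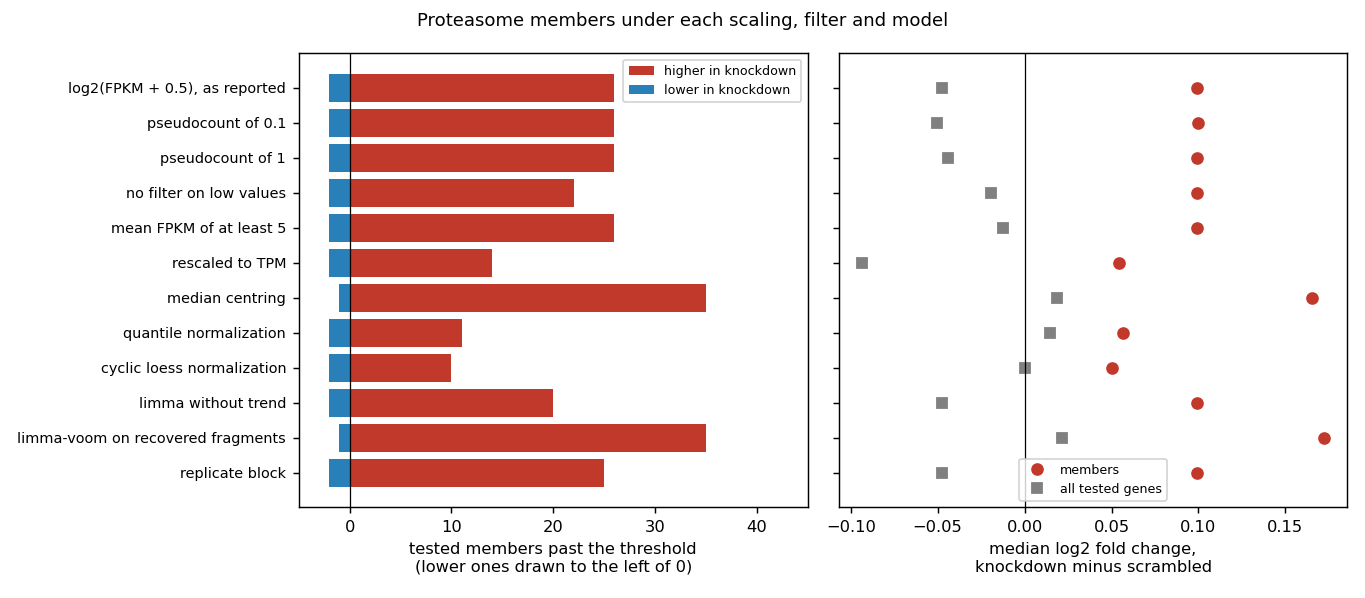
Number of tested members past the threshold (left, higher in knockdown to the right of 0 and lower to the left) and median log2 fold change of members and of all tested genes (right) under each scaling, filter and model (rows). The number of rises runs from 10 with cyclic loess to 35 with median centring and with limma-voom, and the median of the members stays above that of all tested genes in each row.

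The 7 alpha subunits build the outer rings of the core and gate its entry. Of the 7, 5 rose (71.4%) by small amounts (median log2 fold change 0.084), against 41.9% of tested genes in the level range of the subunits. Psma7 stood at 137, 140.2 and 133 FPKM in knockdown libraries 1, 2 and 3, against 124, 121 and 118 FPKM in scrambled libraries 1, 2 and 3 (log2 fold change 0.17 ± 0.032, limma adjusted p = 0.00230). Psma5 stood at 126, 121 and 121 FPKM in knockdown libraries 1, 2 and 3, against 112, 116 and 111 FPKM in scrambled libraries 1, 2 and 3 (log2 fold change 0.12 ± 0.030, limma adjusted p = 0.0101). In both genes every knockdown library lay above every scrambled one. Psma2 stood at 163, 163 and 164 FPKM in knockdown and 148, 157 and 152 FPKM in scrambled libraries (log2 fold change 0.099 ± 0.028, limma adjusted p = 0.0179). Psma6 stood at 131, 129.5 and 129 FPKM in knockdown and 125, 124 and 121 FPKM in scrambled libraries (log2 fold change 0.076 ± 0.026, limma adjusted p = 0.0369). Their groups did not overlap either. Psma3, the lowest of the ring in FPKM, also rose (0.084, limma adjusted p = 0.0379). Its call was lost with batch as a block (adjusted p = 0.0522, with 0.000877 to 0.283 over all alternatives). The same held with any 1 of the 6 libraries left out and without the trend in limma. The call of Psma6 was lost when any library other than knockdown 3 was left out and without the trend, and that of Psma2 without scrambled library 1 and without the trend. Psma4 (0.067, adjusted p = 0.0588) and Psma1 (0.047, adjusted p = 0.304) did not pass with limma. The count of 5 came down to 2 without scrambled library 1, to 3 without knockdown library 1 or 2 or scrambled library 2 or 3, to 1 after rescaling to TPM and to 1 with quantile normalization or cyclic loess, where Psma7 was left. It was 2 without the trend in limma.

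Of the 7 tested beta subunits, which form the inner rings, 3 rose (42.9%). This share was close to the 41.9% of tested genes in the level range of the subunits. The active-site subunits were not alike. Psmb5, the chymotrypsin-like subunit, stood at 225, 221 and 222 FPKM in knockdown libraries 1, 2 and 3, against 203, 209.9 and 199.5 FPKM in scrambled libraries 1, 2 and 3 (log2 fold change 0.13 ± 0.027, limma adjusted p = 0.00487). Psmb7, the trypsin-like subunit, stood at 184, 193 and 189 FPKM in knockdown libraries 1, 2 and 3, against 175, 170.4 and 168 FPKM in scrambled libraries 1, 2 and 3 (log2 fold change 0.14 ± 0.029, limma adjusted p = 0.00386). Psmb6, the caspase-like subunit, stood at 152, 152 and 151 FPKM in knockdown libraries 1, 2 and 3, against 148, 144 and 150.4 FPKM in scrambled libraries 1, 2 and 3 (log2 fold change 0.040 ± 0.027, limma adjusted p = 0.242). Knockdown libraries lay above scrambled ones for all 3, by a narrow margin for Psmb6, which did not pass and turned negative after rescaling to TPM, with quantile normalization and with cyclic loess. Psmb3, a structural subunit, stood at 212, 199.8 and 194 FPKM in knockdown and 185, 176 and 175 FPKM in scrambled libraries (log2 fold change 0.18 ± 0.038, limma adjusted p = 0.00472). Psmb2, also structural, stood at 138, 147 and 145 FPKM in knockdown and 134, 138 and 137 FPKM in scrambled libraries and its groups overlapped (log2 fold change 0.067 ± 0.031, limma adjusted p = 0.102). Psmb4 (0.024, adjusted p = 0.465) and Psmb1 (−0.0040, adjusted p = 0.912) overlapped as well, and Psmb4 was the highest of all members at 271 ± 2.57 FPKM in knockdown and 266 ± 5.68 FPKM in scrambled libraries. Psmb5 and Psmb7 lost their calls with quantile normalization and with cyclic loess and Psmb3 with cyclic loess. Over all alternatives the adjusted p ran from 0.000223 to 0.232 for Psmb5, from 0.000107 to 0.109 for Psmb7 and from 0.000214 to 0.0519 for Psmb3. Psmb11, the beta subunit of thymic epithelium, was below the filter, with 0.00724 FPKM in knockdown library 2, 0.0345 and 0.00620 FPKM in scrambled libraries 1 and 3 and 0 in the other libraries.

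In the base of the regulatory particle 5 of 6 ATPases (83.3%) and all 3 non-ATPases rose. Among tested genes in the level range of the subunits 41.9% rose. Psmc4 stood at 95.1, 92.9 and 90.2 FPKM in knockdown libraries 1, 2 and 3, against 79.1, 81.5 and 80.3 FPKM in scrambled libraries 1, 2 and 3 (log2 fold change 0.21 ± 0.030, limma adjusted p = 0.000668). Psmc5 stood at 149, 148 and 146 FPKM in knockdown libraries 1, 2 and 3, against 129, 138 and 129.9 FPKM in scrambled libraries 1, 2 and 3 (log2 fold change 0.16 ± 0.032, limma adjusted p = 0.00354). Both lay higher in every knockdown library. Psmc1 stood at 151, 140.5 and 146 FPKM in knockdown and 129.6, 138 and 129 FPKM in scrambled libraries (log2 fold change 0.14 ± 0.037, limma adjusted p = 0.0116). Psmc3 stood at 158, 156 and 158 FPKM in knockdown and 147, 151 and 143 FPKM in scrambled libraries (log2 fold change 0.099 ± 0.027, limma adjusted p = 0.0151). Neither overlapped between groups, and the log2 difference of Psmc1 was 0.22, 0.030 and 0.18 in batches 1, 2 and 3, smallest in batch 2. Psmc6 rose by the smallest amount among called members (0.073, adjusted p = 0.0487), a call lost with the batch block (adjusted p = 0.0547, with 0.00140 to 0.786 over all alternatives) and when any library other than knockdown 3 was left out, and Psmc2 did not pass (0.067, adjusted p = 0.143). Psmd2, a large scaffold of the base, stood at 187, 187 and 173 FPKM in knockdown libraries 1, 2 and 3, against 160.4, 163 and 154 FPKM in scrambled libraries 1, 2 and 3 (log2 fold change 0.20 ± 0.038, limma adjusted p = 0.00254). Psmd1, the other large scaffold, stood at 97.4, 92.9 and 92.9 FPKM in knockdown and 89.7, 86.6 and 82.1 FPKM in scrambled libraries (log2 fold change 0.13 ± 0.038, limma adjusted p = 0.0177). Psmd4, a receptor for ubiquitin chains, stood at 169, 176 and 169 FPKM in knockdown and 159, 162 and 154 FPKM in scrambled libraries (log2 fold change 0.11 ± 0.031, limma adjusted p = 0.0143). All 3 had groups that did not overlap. The call of Psmd1 was lost without knockdown library 1 or scrambled library 3 and that of Psmd4 without knockdown library 2. With quantile normalization 2 ATPases and 0 non-ATPases of the base rose, and with cyclic loess 2 and 1. After rescaling to TPM 3 ATPases and 1 non-ATPase rose.

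The lid held the largest rise among the member subunits, that of Psmd8. Of its 8 genes 7 rose (87.5%, median 0.14), against 41.9% of tested genes in the level range of the subunits. Psmd8 stood at 142, 138 and 129 FPKM in knockdown libraries 1, 2 and 3, against 117, 114 and 114 FPKM in scrambled libraries 1, 2 and 3 (log2 fold change 0.24 ± 0.037, limma adjusted p = 0.000866). Psmd6 stood at 112, 112 and 111 FPKM in knockdown libraries 1, 2 and 3, against 97.2, 97.3 and 95.1 FPKM in scrambled libraries 1, 2 and 3 (log2 fold change 0.20 ± 0.025, limma adjusted p = 0.000293). Psmd7, the partner of the deubiquitinase Psmd14, stood at 176, 168 and 174 FPKM in knockdown libraries 1, 2 and 3, against 155, 150.4 and 144 FPKM in scrambled libraries 1, 2 and 3 (log2 fold change 0.20 ± 0.035, limma adjusted p = 0.00141). The lowest knockdown library lay above the highest scrambled library in all 3 genes, and batches 1, 2 and 3 gave log2 differences of 0.28, 0.27 and 0.18 for Psmd8 and 0.20, 0.20 and 0.22 for Psmd6. Psmd3 stood at 151, 153 and 143 FPKM in knockdown and 139, 137 and 131 FPKM in scrambled libraries (log2 fold change 0.14 ± 0.035, limma adjusted p = 0.0101). Psmd11 (0.14), Psmd12 (0.12) and Psmd13 (0.10) rose with adjusted p from 0.0143 to 0.0194. Psmd14, which cuts ubiquitin from the substrate, overlapped between groups, at 93.4 ± 2.51 FPKM in knockdown and 87.7 ± 3.96 FPKM in scrambled libraries (log2 fold change 0.091 ± 0.038, limma adjusted p = 0.0734, and adjusted p = 0.0402 with batch as a block, with 0.00337 to 0.532 over all alternatives). With quantile normalization 4 lid genes rose, with cyclic loess 3 and after rescaling to TPM 4. Psmd12 and Psmd13 lost their calls under each of these scalings, and Psmd11 after rescaling to TPM and with cyclic loess. Psmd12 was lost without knockdown library 1 or 2 or scrambled library 3, and Psmd11 without knockdown library 2. Psmd14 passed without scrambled library 2.

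The difference between groups was larger in the sum of the regulatory particle than in that of the core. The summed level of the 17 base and lid genes was 2121, 2105 and 2066 FPKM in knockdown libraries 1, 2 and 3, against 1907, 1931 and 1843 FPKM in scrambled libraries 1, 2 and 3. The summed level of the 15 core genes was 2259.9, 2252 and 2247 FPKM in knockdown libraries 1, 2 and 3, against 2133, 2136 and 2101 FPKM in scrambled libraries 1, 2 and 3. Both sums were higher in every knockdown library. The median log2 fold change was 0.14 over the 17 base and lid genes and 0.080 over the 14 tested core genes. Of these 15 (88.2%) and 8 (57.1%) rose, against 41.9% of tested genes in the level range of the subunits. Within batches 1, 2 and 3 the median was 0.12, 0.12 and 0.17 for base and lid and 0.062, 0.071 and 0.10 for the core. The ratio of the core sum to the base and lid sum, which no scaling by a factor per library can move, was 1.07, 1.07 and 1.09 in knockdown libraries 1, 2 and 3, against 1.12, 1.11 and 1.14 in scrambled libraries 1, 2 and 3, a mean of 1.07 ± 0.0118 in knockdown and 1.12 ± 0.0171 in scrambled libraries. The 3 knockdown values lay below the 3 scrambled ones. The ratio is a description and carries no test.

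**Figure D3:**
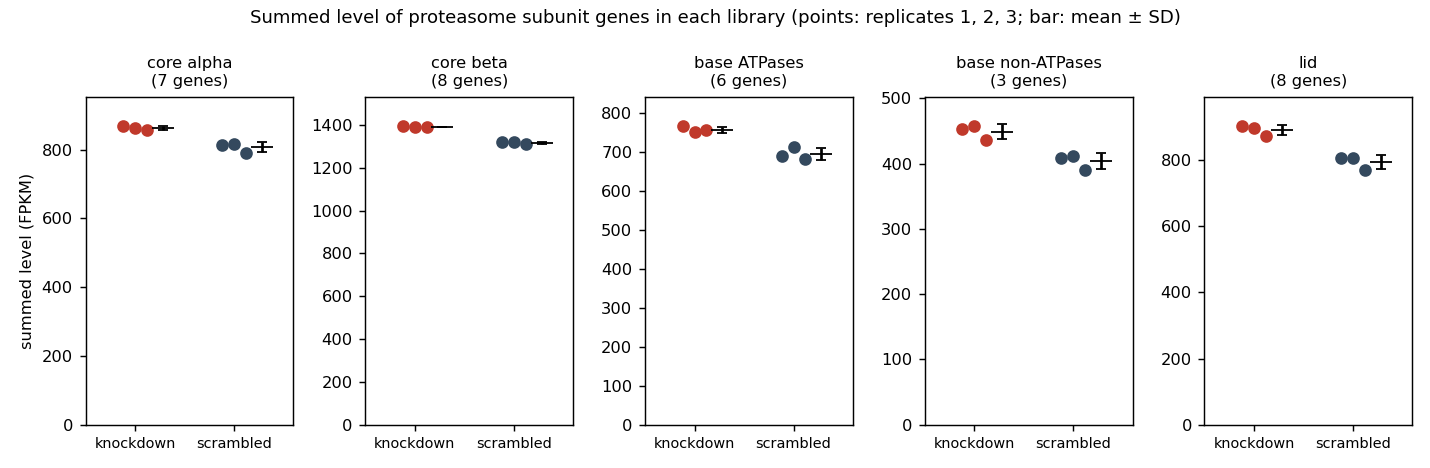
Summed level in FPKM (y axis, from 0) of the alpha, beta, base ATPase, base non-ATPase and lid genes, 1 point per library, knockdown on the left and scrambled on the right, with the mean and SD over 3 libraries. All 3 knockdown points lie above all 3 scrambled points in each panel, and the ratio of means runs from 1.06 for the beta subunits to 1.12 for the lid.

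In FPKM, transcript levels of subunits that occupy a place each in the particle differed among themselves by more than they differed between groups. Per length, the highest of the tested subunits, Psmb4, was 5.84 times the lowest, Psma3, whose level was 47.3 ± 0.152 FPKM in knockdown and 44.6 ± 0.845 FPKM in scrambled libraries. Within the alpha ring the highest level, that of Psma2, was 3.44 times that of Psma3. Yet both genes had similar fragments per library, 4999 to 6310 for Psma2 and 5117 to 6398 for Psma3. Their FPKM differ through the gene lengths that the values imply, 954 bases for Psma2 and 3355 for Psma3. The place of Psma3 as the lowest, and the ratios to it, therefore rest on the length assigned to the gene. Within the lid the ratio was 2.77, from Psmd11 (61.1 ± 1.24 FPKM in knockdown and 55.5 ± 2.47 FPKM in scrambled libraries) to Psmd7 (173 ± 4.46 FPKM in knockdown and 149.7 ± 5.66 FPKM in scrambled libraries). The ATPases were closest to each other, with a ratio of 1.76 between Psmc3 and Psmc4. Across the tested subunits the coefficient of variation of the level was 35.1, 34.7 and 35.5% in knockdown libraries 1, 2 and 3, against 36.0, 36.1 and 37.4% in scrambled libraries 1, 2 and 3. The knockdown values lay slightly below the scrambled ones.

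**Figure D4:**
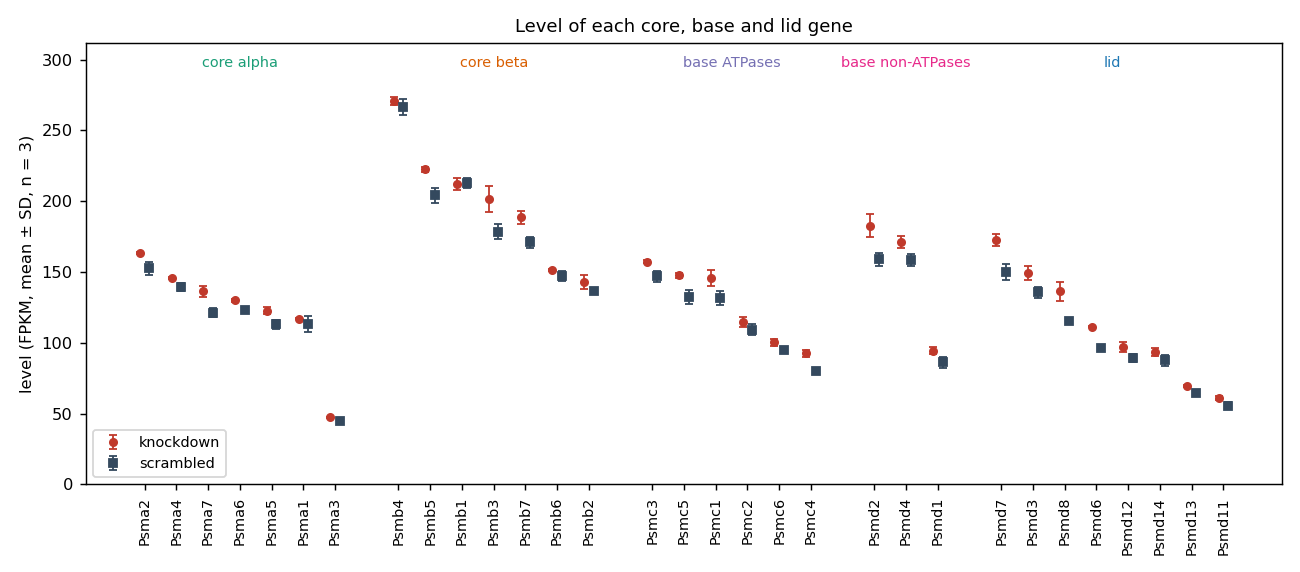
Level of each tested core, base and lid gene in FPKM (y axis, mean and SD over 3 libraries), knockdown as circles on the left of each pair and scrambled as squares on the right, ordered by level within each part. Levels run from about those of Psma3 (46.0 FPKM over all libraries) to Psmb4 (269 FPKM), and the gap between groups is small beside that range.

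Of the 7 assembly chaperones, which bring subunits together and then leave the finished particle, 2 rose (28.6%). Over all tested genes 19.8% rose, so the count is not far from that share. Psmg1, which pairs with Psmg2 to assemble the alpha ring, stood at 31.3, 32.7 and 33.0 FPKM in knockdown libraries 1, 2 and 3, against 29.1, 28.6 and 28.1 FPKM in scrambled libraries 1, 2 and 3 (log2 fold change 0.18 ± 0.034, limma adjusted p = 0.00288). Psmg3, which pairs with Psmg4 on the same ring, stood at 21.6, 24.5 and 24.0 FPKM in knockdown libraries 1, 2 and 3, against 21.2, 18.8 and 20.8 FPKM in scrambled libraries 1, 2 and 3 (log2 fold change 0.20 ± 0.060, limma adjusted p = 0.0202). Groups did not overlap for either gene, though Psmg3 differed between batches, with log2 differences of 0.029, 0.38 and 0.20 in batches 1, 2 and 3, and its call was lost without knockdown library 2 or scrambled library 2, after rescaling to TPM (adjusted p = 0.0532, with 0.00391 to 0.0746 over all alternatives) and without the filter. Psmg2, the partner of Psmg1, stood at 16.4, 18.8 and 18.2 FPKM in knockdown and 18.2, 18.5 and 18.5 FPKM in scrambled libraries (log2 fold change −0.048 ± 0.052, limma adjusted p = 0.467). Its groups overlapped, and Psmg4, the partner of Psmg3, overlapped too (−0.026, adjusted p = 0.776). Psmd5, Psmd9 and Psmd10, which hold the ATPases while the base forms, did not pass either. Psmd5 stood at 47.9, 44.9 and 49.8 FPKM in knockdown and 49.1, 45.8 and 44.3 FPKM in scrambled libraries (log2 fold change 0.035 ± 0.049, limma adjusted p = 0.573). Psmd9 had a log2 fold change of 0.029 and Psmd10 one of −0.0054 (limma adjusted p = 0.609 and 0.934). The chaperones were mostly expressed below the subunits, from 14.2 to 47.0 FPKM on average. Psmd5 (47.0 FPKM) lay just above the subunit Psma3 (46.0 FPKM). Standard errors of the chaperones reached 0.069, against at most 0.038 in the subunits.

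Psme3 had the largest rise of all members, and the inhibitor Psmf1 fell. Psme3, the gamma subunit of the nuclear activator PA28, stood at 50.7, 48.2 and 47.8 FPKM in knockdown libraries 1, 2 and 3, against 41.3, 40.0 and 39.9 FPKM in scrambled libraries 1, 2 and 3 (log2 fold change 0.27 ± 0.034, limma adjusted p = 0.000314). Its log2 difference within batches 1, 2 and 3 was 0.29, 0.27 and 0.26. Psme4, the activator PA200 known from chromatin and spermatogenesis, stood at 24.1, 23.5 and 23.2 FPKM in knockdown and 23.1, 23.5 and 21.7 FPKM in scrambled libraries and overlapped between groups (log2 fold change 0.052 ± 0.040, limma adjusted p = 0.306). Psmf1, which encodes the proteasome inhibitor PI31, stood at 8.79, 9.201 and 9.23 FPKM in knockdown libraries 1, 2 and 3, against 9.97, 10.2 and 10.4 FPKM in scrambled libraries 1, 2 and 3 (log2 fold change −0.16 ± 0.042, limma adjusted p = 0.0129). Every knockdown library lay below every scrambled one, and the call was lost under median centring (adjusted p = 0.0912), quantile normalization (0.107), cyclic loess (0.0746) and limma-voom (0.134), its lowest over all alternatives being 0.00450.

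The constitutive active-site subunits and their inducible counterparts went opposite ways where both passed. Psmb8, the inducible counterpart of Psmb5, stood at 1.20, 0.277 and 0.948 FPKM in knockdown and 3.36, 3.58 and 3.94 FPKM in scrambled libraries (log2 fold change −1.73 ± 0.25, limma adjusted p = 0.00059), and its share of the Psmb8 and Psmb5 level together was 0.530, 0.125 and 0.425% in knockdown libraries 1, 2 and 3, against 1.63, 1.68 and 1.94% in scrambled libraries 1, 2 and 3. Psmb10, the counterpart of Psmb7, stood at 13.8, 13.1 and 13.5 FPKM in knockdown and 15.2, 15.5 and 15.2 FPKM in scrambled libraries (log2 fold change −0.18 ± 0.038, limma adjusted p = 0.00407, and 0.179 with limma-voom, where the call was lost), and its share of that pair was 6.98, 6.36 and 6.65% in knockdown libraries 1, 2 and 3, against 8.005, 8.35 and 8.31% in scrambled libraries 1, 2 and 3. Knockdown shares lay below scrambled shares in both pairs, and a scaling by a factor per library cannot move them. The Psmb8 shares rest on few fragments, between 11 and 183 of Psmb8 in a library. Psmb9, the counterpart of Psmb6, was below the filter at 0.275, 0 and 0.135 FPKM in knockdown and 0.572, 0.271 and 0.452 FPKM in scrambled libraries, with overlapping groups. The inducible activator subunits fell while Psme3 rose. Psme1 stood at 45.1 ± 2.57 FPKM in knockdown and 59.2 ± 5.65 FPKM in scrambled libraries (log2 fold change −0.39 ± 0.068, limma adjusted p = 0.00170) and Psme2 at 24.3 ± 1.42 FPKM in knockdown and 37.8 ± 1.48 FPKM in scrambled libraries (log2 fold change −0.63 ± 0.048, limma adjusted p = 3.85e-05). The ratio of Psme3 to Psme1 was 1.16, 1.11 and 0.995 in knockdown libraries 1, 2 and 3, against 0.690, 0.752 and 0.619 in scrambled libraries 1, 2 and 3. The ratio of Psme3 to Psme2 was 2.18, 2.03 and 1.84 in knockdown libraries 1, 2 and 3, against 1.13, 1.08 and 1.01 in scrambled libraries 1, 2 and 3. In both ratios every knockdown value lay above every scrambled one, and an exact permutation test of 3 against 3 libraries cannot go below p = 0.1.

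**Figure D5:**
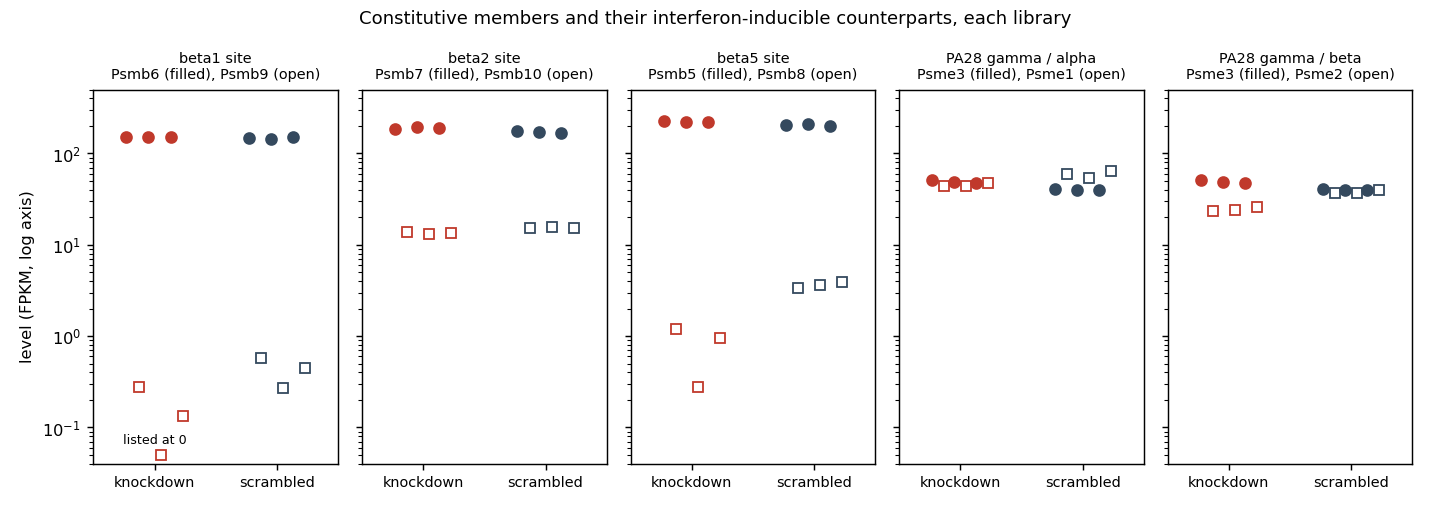
Level in FPKM (log axis) in each library, knockdown on the left and scrambled on the right, of a constitutive member (filled circles) and an interferon-inducible gene (open squares) in 5 pairs. Psmb9 is listed at 0 in knockdown library 2 and is drawn at the foot of the axis. Psmb8 lies lower in knockdown libraries, and Psme3 lies above Psme2 there while the 2 nearly coincide in scrambled libraries.

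Of the 3 members that are not subunits by name, Psme2b fell and the other two did not pass. Psme2b (chromosome 11, positions 48945354 to 48946190, minus strand of GRCm38 in GENCODE M21) stood at 7.25, 8.28 and 8.60 FPKM in knockdown libraries 1, 2 and 3, against 10.4, 10.7 and 12.5 FPKM in scrambled libraries 1, 2 and 3 (log2 fold change −0.45 ± 0.082, limma adjusted p = 0.00215). Its transcript matches that of Psme2 in 99.4% of 794 aligned positions, so reads of these genes may be split uncertainly, and the fall cannot be assigned to the copy. Psmc3ip, a partner of meiotic recombinases, stood at 6.23, 7.10 and 6.87 FPKM in knockdown and 6.07, 6.42 and 6.89 FPKM in scrambled libraries and overlapped between groups (log2 fold change 0.055 ± 0.065, limma adjusted p = 0.5004). Psme3ip1 stood at 16.9, 17.5 and 16.5 FPKM in knockdown and 16.2, 16.1 and 15.8 FPKM in scrambled libraries and did not pass, with a log2 fold change of 0.081 ± 0.037 and groups that did not overlap. Of the members 12 share exon sequence with another gene in GENCODE M21, among them the called genes Psma5, Psmb5, Psmb7, Psmc3, Psmd1, Psmd3, Psmd13, Psmg3 and Psme2b. Reads of such pairs may be mixed, on 1 strand for Psmb5, Psmd1, Psmg3 and Psme2b and on opposite strands for the others, for which the sources used here give no strand setting of the counting. RefSeq names 6 pseudogenes of Psma5, Psmb5, Psmb6 and Psmb7.

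Of 6 tested subunits and helpers without a Psm symbol, 3 rose and 0 fell by limma (0 also at an unadjusted p under 0.05 and with limma-voom), where 19.8% of all tested genes rose and 31.1% fell. Adrm1, Sem1 and Pomp lie in the level range of the member subunits, in which 41.9% of tested genes rose and 20.9% fell. Adrm1, a ubiquitin receptor of the base, stood at 107, 106 and 103 FPKM in knockdown libraries 1, 2 and 3, against 87.8, 88.7 and 84.2 FPKM in scrambled libraries 1, 2 and 3 (log2 fold change 0.27 ± 0.031, limma adjusted p = 0.000197). Akirin2, which brings proteasomes into the nucleus, stood at 43.8, 44.2 and 42.2 FPKM in knockdown and 37.9, 38.7 and 34.5 FPKM in scrambled libraries (log2 fold change 0.23 ± 0.046, limma adjusted p = 0.00346). Both had groups that did not overlap and passed under every alternative. Pomp, the chaperone of the beta rings, stood at 124, 126 and 119.7 FPKM in knockdown and 117, 111 and 116 FPKM in scrambled libraries (log2 fold change 0.10 ± 0.032, limma adjusted p = 0.0237), and its call was lost without knockdown library 1 or 2 or scrambled library 2. The other 3, the small lid subunit Sem1 (−0.014), the scaffold Ecpas (−0.072) and Zfand5 (0.078), had adjusted p from 0.123 to 0.729. Of 17 alternatives, Sem1 was called lower under 2, Ecpas lower under 1 and Zfand5 higher under 4. Paaf1, a chaperone of the base, was not analysed here.

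Genes upstream and downstream of the proteasome went in both directions. In all the pathway lists other than the inducible subunits, 18 of 57 tested genes rose (31.6%) and 8 fell (14.0%), and over all tested genes the shares were 19.8% and 31.1%. Among ubiquitin receptors and shuttles 2 of 8 rose and 1 fell, Ubqln4 with 0.22 ± 0.035 (adjusted p = 0.00108), Zfand2a with 0.12 (a call lost with batch as a block) and Zfand2b with −0.22. The share that rose was near that of all tested genes, and the share that fell was below it. Of the proteasome-bound enzymes that trim or extend ubiquitin chains, Uchl5 (0.17) and the ligase Ube3c (0.14) rose and Usp14 stood at the threshold (0.080, adjusted p = 0.05002). The ubiquitin-activating enzyme Uba6 fell (−0.16) and Uba1 did not pass (0.047). Of 13 genes of the VCP segregase and its cofactors 1 rose, Ufd1 (0.16 ± 0.031), and 3 fell, Derl1 (−0.21 ± 0.042), Syvn1 (−0.18) and Faf2 (−0.13), which serve degradation from the endoplasmic reticulum. Neither share was above that of all tested genes (19.8% higher and 31.1% lower). Of 7 peptidases that cut the products of the proteasome 4 rose, Lap3 (0.27 ± 0.029), Thop1 (0.22 ± 0.033), Nln (0.14) and Tpp2 (0.093). Of the genes in this paragraph Ubqln4, Ufd1, Derl1, Lap3 and Thop1 passed under every alternative. The call of Ube3c was lost without knockdown library 2, that of Faf2 without scrambled library 3, that of Syvn1 without scrambled library 2, those of Uchl5 and Nln without knockdown library 1 or scrambled library 1 or 3, and that of Nln also without knockdown library 3. The call of Zfand2b was lost without knockdown library 2 or scrambled library 1 or 3, and that of Uba6 without knockdown library 1 or 3 or scrambled library 1 or 2. That of Zfand2a was lost when any library other than knockdown 3 was left out, and that of Tpp2 when any 1 of the 6 was.

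The transcript of NFE2L1, the factor that controls subunit genes, fell. Nfe2l1 stood at 46.9, 48.5 and 47.1 FPKM in knockdown libraries 1, 2 and 3, against 63.8, 61.9 and 66.6 FPKM in scrambled libraries 1, 2 and 3 (log2 fold change −0.43 ± 0.035, limma adjusted p = 4.86e-05). The groups were far apart, and the fall passed under every alternative. NFE2L1 is controlled after translation, so its transcript is not a measure of its activity. Keap1, which marks NFE2L2 for degradation, also fell (log2 fold change −0.22 ± 0.044, limma adjusted p = 0.00323), and Nfe2l2 missed the threshold (log2 fold change −0.16 ± 0.062, limma adjusted p = 0.0577). The small MAF partners Mafk (4.14 ± 0.610 FPKM in knockdown and 2.62 ± 0.170 FPKM in scrambled libraries, log2 fold change 0.57 ± 0.096, limma adjusted p = 0.00150) and Maff (0.46 ± 0.12, adjusted p = 0.0119) rose, the call of Maff being lost without the filter. Of the 10 regulators listed, 2 rose, 2 fell and 6 did not pass, against 19.8% higher and 31.1% lower of all tested genes. Of 8 genes known as NFE2L2 targets outside the proteasome 4 rose and 1 fell, against the same shares of all tested genes. Txnrd1, a thioredoxin reductase (0.30 ± 0.026), and Gclm (0.27 ± 0.051) and Gclc (0.21), which make glutathione, rose under every alternative, and Gsr, a glutathione reductase, rose (0.12) but not without knockdown library 1 or scrambled library 3. Slc7a11, the cystine importer, which is also a target of ATF4, stood at 0.974, 1.04 and 1.26 FPKM in knockdown libraries 1, 2 and 3, against 3.88, 4.29 and 4.92 FPKM in scrambled libraries 1, 2 and 3 (log2 fold change −1.61 ± 0.10, limma adjusted p = 2.1e-05).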

How the data were processed

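RNA of 6 libraries, 3 knockdown and 3 scrambled, was sequenced after capture of mRNA on beads, per the labels' protocols. The authors deposited 1 table with 1 value in FPKM per gene and library. The submitters' processing notes list GRCm38, mm10 and GRCm39, with no role for any of these builds. The aligner, counter and strand setting are not stated there. Whole fragments were recovered from the steps in the FPKM values (within 0.002 of a whole number for all 19877 genes) to give depth and to run limma-voom with trimmed-mean scaling. Genes that reached an FPKM of 1 in 3 or more libraries were tested on log2(FPKM + 0.5) with limma 3.58.1 in R 4.3.3, with a variance trend, two-sided, without a block, and the script was tested on simulated data. The pseudocount makes the fold changes of low genes too small. Counting error alone gave a median standard error of 0.0154 for the log2 fold change of a member, against 0.0346 in limma.

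Members and lists were chosen with earlier results of these data known. Values in each library are given for up to 4 members of smallest p per role, the called members that fell, the active-site subunits, and the member below the filter. Of each pathway list up to 3 called genes of smallest p are named by rule, and other genes of the lists were named after their values were seen, to complete a count. Some genes of the lists are not reported here. Libraries of 1 number share a labelled batch, so the number pairs them, and deviations of same-numbered libraries from their group means correlated by 0.086, 0.012 and 0.19 across genes. Between knockdown and scrambled libraries of different numbers these correlations ran from −0.17 to 0.11. Alternatives were other pseudocounts, filters, scalings and models, the batch block and leaving out each library. Gene positions came from GENCODE M21 and promoters from RefSeq, both on GRCm38.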

Additional observations from a re-analysis of the deposited data

How the results depend on the processing

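The size of the rise of the members depended on the scaling, and the direction of their median did not under the alternatives run. The median log2 fold change of the tested members, 0.099 as reported, was 0.054 after rescaling to TPM, 0.17 under median centring, 0.057 with quantile normalization, 0.050 with cyclic loess and 0.17 with limma-voom, and 0.091 to 0.12 when 1 library was left out. In place of 26 members, 14 rose after rescaling to TPM, 11 with quantile normalization, 10 with cyclic loess and 19 to 25 with 1 library left out, and in place of 2 members, 1 fell under median centring and with limma-voom, where the call of Psmf1 was lost. With batch as a replicate block 25 members rose and 2 fell. The block ended the calls of Psma3 and Psmc6, added Psmd14 and changed no other call among the members, and among the pathway lists it ended that of Zfand2a and added Rad23b and Hmox1. Of the 57 tested genes in the pathway lists other than the inducible subunits, 18 rose and 8 fell. The counts were 11 and 17 after rescaling to TPM (where 14.9% and 39.1% of all tested genes rose and fell), 28 and 4 under median centring (29.1% and 22.2%), 29 and 4 with limma-voom (29.9% and 23.2%), and between 12 and 16 rises and 6 and 10 falls with 1 library left out, the fewest rises without knockdown library 1. All tested genes called numbered 4335 to 5284 with 1 library left out, against 5255. The direction turned for Nqo1, 0.032 as reported (limma adjusted p = 0.866). Without knockdown library 3 Nqo1 was called lower (−0.17, limma adjusted p = 0.0197). With 1 library left out its log2 fold change ran from −0.17 to 0.14. Some members that had not passed changed sign too, none past the threshold. Psmb4 and Psmb6 turned negative after rescaling to TPM, with quantile normalization and with cyclic loess. Psma1, Psma4, Psmb2 and Psmc2 did so with cyclic loess, and Psmd5 and Psmd9 after rescaling to TPM. Psmb1, Psmd10, Psmg2 and Psmg4 turned positive under some alternatives. The cause was not tested. Among these libraries the median standard error of a member came to 0.0346 on the log2 scale, against 0.0154 from counting error alone. No member below 0.0735 in size was called.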
